A study of Homo sapiens with 11 samples.

Results

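The genes described here are 44 protein-coding genes, each of which covers more than 200 kb of the genome from its start to its end. They were taken by symbol from the 22109 genes that have a transcript cluster of their own, a transcript cluster being the set of array probes read together for a locus. The list was drawn up with the levels on these arrays already known, so the values of both compound arrays are given as a description without a test. How these genes were picked from the 545 protein-coding genes of this size that were tested is not stated. Spans in RefSeq for GRCh38.p14 ran from 203 kb (BTRC) to 2058 kb (MACROD2) with a median of 577 kb, so all 44 lay above the threshold. No source used here names the genome build of the array's probes. A gene was tested where its level reached 3.80 on the log2 scale on at least 1 array, which 37 of the 44 did. Of these, 34 were at or above that level on all 11 arrays.

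All RNA came from MV4-11, an established acute myeloid leukaemia cell line, and each condition was measured on 1 array. Of the 11 arrays, 8 came from cells transduced with shRNAs and then kept for 24 hours with 3 µM doxycycline. They held a luciferase shRNA (shLuc, the control), shRNAs against RUNX1, RUNX2 and RUNX3 alone, the 3 pairs and all 3 together. The other 3 came from cells that the labels describe without transduction or doxycycline, treated for 6 hours with DMSO (the control), 1 µM Chb-M' or 1 µM Chb-50, which the series calls alkylating PIP conjugates. RUNX1, RUNX2 and RUNX3 encode related DNA-binding transcription factors. RNA of a whole culture was measured, so fewer cells with a transcript and less transcript per cell cannot be told apart.

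RNA polymerase II copies a gene from its start to its end, introns included, before the transcript is released and its splicing completed. The finished mRNA of a very long gene therefore appears later after initiation than that of a short gene, although the mature mRNAs may be of like length. Very long genes are often expressed in neurons, many hold common fragile sites such as those in FHIT and WWOX, and their products range from synaptic scaffolds to DNA repair proteins.

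The 8 knockdown arrays, the DMSO array and the compound arrays had medians over the 12147 genes tested between 5.86 and 5.91. Of the 12 markers fixed for this line, 10 had a cluster and all 10 reached the level filter. Their summed level was 74.0 to 75.6 on the knockdown arrays, 76.8 with DMSO, 75.4 with Chb-M' and 76.3 with Chb-50. Against DMSO the marker PTPRC differed most, by -0.69 with Chb-M' and -0.35 with Chb-50. The sums do not show a wide gap in KIT between the knockdown and the other cultures. KIT read 4.21 to 5.00 on the knockdown arrays, 7.14 with DMSO, 6.77 with Chb-M' and 6.79 with Chb-50. Of 14 markers of other cell types, 11 had a cluster and 2, the keratins KRT8 and KRT18, reached the filter. The summed level of the 11 was 28.8 to 30.4 on the knockdown arrays, 29.3 with DMSO, 30.7 with Chb-M' and 29.4 with Chb-50, and the part of these shifts in the results below was not tested. RUNX2 read 5.56 to 5.82 on the arrays with its shRNA and 6.00 to 6.30 on those without, with no overlap. RUNX3 read 7.65 to 7.87 with and 7.70 to 8.37 without its shRNA, which overlap through the array labelled shRUNX1. The level of RUNX1 was not examined, so its knockdown is unchecked here.

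Promoter sequence is shown for 3 of the 4 listed genes with the lowest Chb-M' minus DMSO differences and for the gene with the highest among the 37 that reached the filter, because RUNX proteins bind the core motif TGTGGT and its variant TGCGGT. Each line gives the 250 bases before the gene start from RefSeq (GRCh38.p14), 5′ to 3′ on the gene's strand. The windows are chr4:61200076-61200325 (plus strand) for ADGRL3, chr11:129279519-129279768 (minus strand) for ARHGAP32, chr5:108747647-108747896 (plus strand) for FER and chr1:246507280-246507529 (minus strand) for SMYD3. Capitals mark either motif on either strand.
ADGRL3: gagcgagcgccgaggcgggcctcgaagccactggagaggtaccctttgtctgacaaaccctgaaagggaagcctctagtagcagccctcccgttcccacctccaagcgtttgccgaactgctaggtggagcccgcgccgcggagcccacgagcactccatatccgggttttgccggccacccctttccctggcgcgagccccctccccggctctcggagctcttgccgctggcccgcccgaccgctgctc
ARHGAP32: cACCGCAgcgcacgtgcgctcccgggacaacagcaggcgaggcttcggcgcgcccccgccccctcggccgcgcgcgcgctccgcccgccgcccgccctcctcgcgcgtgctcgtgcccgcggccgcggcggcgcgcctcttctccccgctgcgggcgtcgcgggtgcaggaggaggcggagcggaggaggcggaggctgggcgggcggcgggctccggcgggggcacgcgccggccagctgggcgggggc
FER: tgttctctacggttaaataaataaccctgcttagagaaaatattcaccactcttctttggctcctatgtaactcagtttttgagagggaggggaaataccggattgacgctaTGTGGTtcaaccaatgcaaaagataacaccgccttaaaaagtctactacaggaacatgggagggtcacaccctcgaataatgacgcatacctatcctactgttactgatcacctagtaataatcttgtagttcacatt
SMYD3: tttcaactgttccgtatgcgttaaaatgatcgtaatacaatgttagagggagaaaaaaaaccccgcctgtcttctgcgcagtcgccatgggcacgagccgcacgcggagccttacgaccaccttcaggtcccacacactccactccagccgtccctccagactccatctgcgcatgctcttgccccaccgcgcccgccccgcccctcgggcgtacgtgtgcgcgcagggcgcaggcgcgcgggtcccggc
ARHGAP32 holds 1 TGCGGT on the strand opposite to the gene, FER holds 1 TGTGGT on its own strand, and ADGRL3 and SMYD3 hold neither in this window. RefSeq windows were matched for 38 of the 44 genes. At least 1 of the motifs was present in 7 of these 38 (18.4%), in 5 of the 32 matched genes that reached the level filter (15.6%) and in 69 of 435 unlisted protein-coding genes above 200 kb (15.9%). The share was 15.5% over the 8768 protein-coding genes tested with a window and 16.3% over all 35116 windows. Among the 4 windows printed, the share of G or C ran from 40.4% in FER to 84.4% in ARHGAP32.

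With Chb-M', most of the listed genes lay below DMSO and below every array without a compound. Chb-M' lay below each of those 9 arrays for 33 of the 37 that reached the filter. The same held for 66.3% of 508 unlisted protein-coding genes above 200 kb and 15.1% of 10027 of 200 kb or less. Against DMSO the lowest 5 listed genes were CSMD3 (-1.79), ADGRL3 (-1.65), ARHGAP32 (-1.59), FER (-1.52) and CDKAL1 (-1.49). Of the 37 that reached the filter 17 were at least 2-fold lower, 9 more were between 1.5-fold and 2-fold lower and 0 were higher by either fold. Over all 12147 genes tested, 0.56% were at least 2-fold lower and 3.21% at least 1.5-fold lower, and 0.313% and 2.25% were higher by those folds. The median difference of the 37 was -0.92, or 52.9% of the DMSO level, against 0.02 over all genes tested. These counts partly restate how the list was made. ARHGAP42 reached the filter on the DMSO array only (3.85), so it had to lie lower elsewhere.

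**Figure D1:**
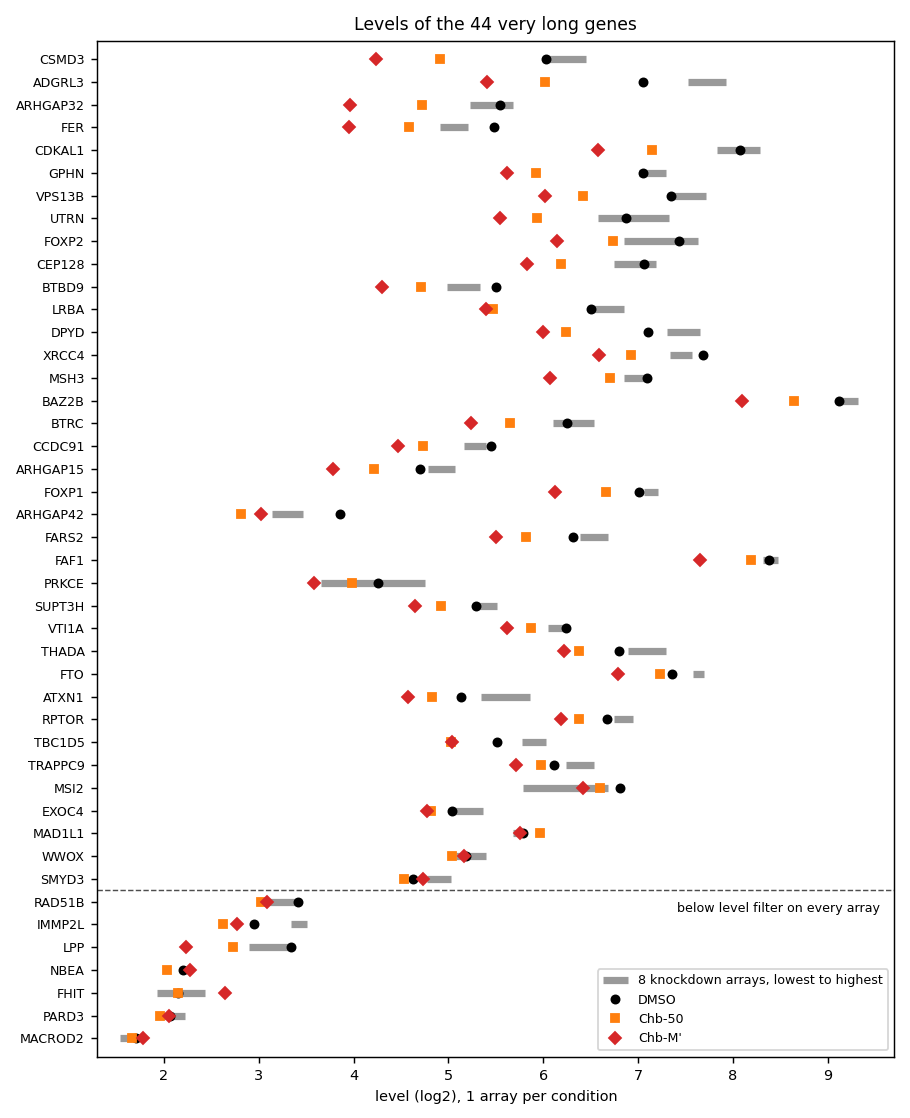
Level (log2) of each of the 44 genes on the DMSO, Chb-50 and Chb-M' arrays, with a grey bar from the lowest to the highest of the 8 knockdown arrays. The genes that reached the level filter are ordered by Chb-M' minus DMSO. The 7 below it are under the dashed line, ordered by mean level. For most genes the Chb-M' and Chb-50 symbols lie left of the grey bar, as for CSMD3 at 4.24 and 4.91 against a bar from 6.00 to 6.45, while MAD1L1, MSI2, WWOX and SMYD3 show little or no gap.

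The 4 membrane and adhesion genes all lay at least 2-fold below DMSO with Chb-M'. CSMD3, a large transmembrane protein with CUB and sushi domains, read 6.00 to 6.45 on the knockdown arrays with a median of 6.13, 6.03 with DMSO, 4.24 with Chb-M' and 4.91 with Chb-50. The Chb-M' level was 28.9% of the DMSO level, and the 95% interval of the difference was -2.20 to -1.38 when the spread of the knockdown arrays is taken for the compound arrays too. That interval is no test, since CSMD3 is the lowest of a list drawn up with these levels known. ADGRL3, an adhesion G protein-coupled receptor of the latrophilin family, read 7.53 to 7.93 on the knockdown arrays (median 7.82), 7.05 with DMSO, 5.40 with Chb-M' and 6.01 with Chb-50. Its DMSO level was itself below every knockdown array. GPHN encodes gephyrin, which anchors inhibitory neurotransmitter receptors and also serves in molybdenum cofactor synthesis. It read 7.01 to 7.29 on the knockdown arrays (median 7.15), 7.05 with DMSO, 5.61 with Chb-M' and 5.92 with Chb-50. UTRN, the dystrophin relative utrophin, read 6.58 to 7.32 on the knockdown arrays (median 6.94), 6.87 with DMSO, 5.54 with Chb-M' and 5.93 with Chb-50. For all 4 genes both compound arrays lay below each of the 9 arrays without a compound. The same held for 32 of the 37 listed genes that reached the filter. It held for 49.8% of 508 unlisted protein-coding genes above 200 kb and 8.05% of 10027 of 200 kb or less.

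Among the 9 genes of the cytoskeleton and signalling, 7 reached the filter, 3 of which were at least 2-fold lower with Chb-M'. ARHGAP32, a GTPase-activating protein for small GTPases, read 5.22 to 5.68 on the knockdown arrays (median 5.58), 5.55 with DMSO, 3.96 with Chb-M' and 4.72 with Chb-50. FER, a non-receptor tyrosine kinase, read 4.91 to 5.21 on the knockdown arrays (median 4.99), 5.48 with DMSO, 3.96 with Chb-M' and 4.58 with Chb-50. The FER difference was -1.52 against DMSO and -1.25 against shLuc, because DMSO lay above every knockdown array. CEP128, a centriole protein, was lower by a log2 difference of -1.23 with Chb-M' and -0.88 with Chb-50. ARHGAP15, another GTPase-activating protein, had differences of -0.92 and -0.49. The low second cluster of ARHGAP15 had a mean level of 2.31 and differences of -0.03 and 0.12. PRKCE, a protein kinase C, had -0.67 and -0.28, with a Chb-50 level inside its wide knockdown range of 3.66 to 4.75. RPTOR, the raptor subunit of mTOR complex 1, had -0.49 and -0.30. LPP and PARD3 stayed below the filter. LPP nevertheless read 2.90 to 3.33 on the knockdown arrays, 3.34 with DMSO, 2.23 with Chb-M' and 2.73 with Chb-50, whereas PARD3 lay between 1.92 and 2.22 on the knockdown arrays and at 2.05 with Chb-M'.

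The membrane traffic genes were more mixed. VPS13B, a lipid transfer protein of the Golgi, read 7.35 to 7.71 on the knockdown arrays (median 7.47), 7.34 with DMSO, 6.01 with Chb-M' and 6.41 with Chb-50. LRBA, a BEACH-domain protein needed for recycling of CTLA4 in T cells, read 6.50 to 6.85 on the knockdown arrays (median 6.52), 6.50 with DMSO, 5.39 with Chb-M' and 5.47 with Chb-50. These 2 of the 7 that reached the filter were at least 2-fold lower with Chb-M'. CCDC91 had Chb-M' and Chb-50 differences of -0.98 and -0.72, and the SNARE protein gene VTI1A had -0.62 and -0.37. TBC1D5, a Rab GTPase-activating protein, had -0.47 and -0.48. TRAPPC9, a subunit of the TRAPP tethering complex, had -0.39 and -0.14. EXOC4, a subunit of the exocyst with a span of 848 kb, differed by -0.26 and -0.22. Its second cluster, at a mean level of 2.05, gave 0.32 and 0.37, and the mean of both clusters 0.03 and 0.08. NBEA, another BEACH-domain gene, lay below the filter at 2.18 to 2.29 on the knockdown arrays and 2.27 with Chb-M'.

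In the ubiquitin pathway and in metabolism the differences again ran to more than 2-fold. BTRC, the substrate receptor of an SCF ubiquitin ligase, had differences of -1.02 with Chb-M' and -0.60 with Chb-50, BTBD9 had -1.20 and -0.79, and the VCP cofactor FAF1 had -0.73 and -0.19. CDKAL1, which modifies a lysine transfer RNA, read 7.83 to 8.28 on the knockdown arrays (median 8.18), 8.07 with DMSO, 6.58 with Chb-M' and 7.14 with Chb-50. DPYD, the enzyme that starts pyrimidine breakdown, read 7.31 to 7.65 on the knockdown arrays (median 7.47), 7.10 with DMSO, 6.00 with Chb-M' and 6.24 with Chb-50. FARS2, the mitochondrial phenylalanyl-tRNA synthetase, had -0.81 and -0.49. THADA had -0.58 and -0.42. FTO, an RNA demethylase, had -0.57 and -0.13.

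Of the 4 genes of genome maintenance and mitosis, 3 reached the filter and 2 of them, XRCC4 and MSH3, were at least 2-fold below DMSO with Chb-M'. XRCC4, a partner of DNA ligase IV in end joining, read 7.34 to 7.57 on the knockdown arrays (median 7.43), 7.68 with DMSO, 6.59 with Chb-M' and 6.93 with Chb-50. Its Chb-M' difference of -1.09 against DMSO was -0.93 against shLuc. MSH3, a mismatch repair protein, read 6.85 to 7.11 on the knockdown arrays (median 6.99), 7.10 with DMSO, 6.06 with Chb-M' and 6.70 with Chb-50. RAD51B, a homologous recombination gene, stayed below the filter, with 3.10 to 3.44 on the knockdown arrays, 3.41 with DMSO, 3.09 with Chb-M' and 3.03 with Chb-50. MAD1L1, which recruits MAD2 at unattached kinetochores, read 5.68 to 5.76 on the knockdown arrays, 5.78 with DMSO, 5.75 with Chb-M' and 5.96 with Chb-50. Its 95% interval for Chb-M' minus DMSO was -0.27 to 0.21, and it was the listed gene with the highest Chb-50 minus DMSO difference (0.18) among the 37.

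Genes for transcription factors, chromatin proteins and RNA-binding proteins had a median Chb-M' difference of -0.65, with 2 of 7 at least 2-fold lower. FOXP2, a forkhead transcription factor, read 6.85 to 7.63 on the knockdown arrays (median 7.06), 7.43 with DMSO, 6.14 with Chb-M' and 6.73 with Chb-50. Its Chb-M' and Chb-50 differences were -1.28 and -0.69 against DMSO but -0.71 and -0.12 against shLuc. BAZ2B, a bromodomain protein, read 9.11 to 9.32 on the knockdown arrays, 9.12 with DMSO, 8.10 with Chb-M' and 8.64 with Chb-50. A further BAZ2B cluster with a mean level of 5.21 had differences of -0.35 and -0.52. FOXP1, a relative of FOXP2, had -0.89 and -0.35, SUPT3H, a subunit of the SAGA coactivator, -0.65 and -0.37, and ATXN1 -0.57 and -0.31. MSI2, an RNA-binding protein of stem and leukaemia cells, had -0.38 and -0.21, both levels inside its knockdown range, and Chb-50 was 0.11 above shLuc. SMYD3, a methyltransferase gene of 758 kb, differed by 0.11 and -0.09 and was the only one of the 37 above DMSO with Chb-M'. That sign depended on the control, since the Chb-M' level of 4.74 lay below every knockdown array (4.77 to 5.03) and the difference from shLuc was -0.12.

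The listed genes best known for common fragile sites mostly lay below the level filter. FHIT, WWOX, MACROD2 and IMMP2L are among the longest of the 44, and only WWOX reached the filter. WWOX, an oxidoreductase with WW domains, read 5.08 to 5.39 on the knockdown arrays (median 5.22), 5.18 with DMSO, 5.16 with Chb-M' and 5.03 with Chb-50. The Chb-M' minus DMSO difference was -0.02 with a 95% interval of -0.41 to 0.37, for a gene of 1113 kb. FHIT lay between 1.93 and 2.43 on the knockdown arrays, at 2.15 with DMSO and at 2.65 with Chb-M'. MACROD2 lay between 1.53 and 1.77 on the knockdown arrays and at 1.78 with Chb-M', and IMMP2L between 3.34 and 3.51 there and at 2.95 with DMSO, 2.77 with Chb-M' and 2.62 with Chb-50. FHIT, MACROD2, NBEA and PARD3 were thus within the lowest part of the array's scale without a compound, and a fall there may not be measurable.

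Chb-50, given at the same dose and time, had differences in the same direction but smaller for most of the listed genes. Both compound differences use the same DMSO array, so they are not independent of each other. With Chb-50, 5 of 37 genes were at least 2-fold lower, namely GPHN (-1.13), CSMD3 (-1.12), ADGRL3, ARHGAP42 (both -1.04) and LRBA (-1.03), against 0.156% of all genes tested. ARHGAP42 passed the filter through the DMSO array alone and had a difference of -0.49 against shLuc, so it adds nothing to that count. With shLuc as control the count was 8, but the share over all genes was not computed for that control. The shLuc culture also differs in transduction, doxycycline and time. Against DMSO 17 were at least 1.5-fold lower, against 1.98% of all genes. The median difference was -0.49, or 71.4% of the DMSO level, against 0.00 over all genes tested. Against the mean of the 9 arrays without a compound the median was -0.55. With that control 16 genes were at least 1.5-fold lower with Chb-50, against 2.49% of all genes tested.

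The order DMSO above Chb-50 above Chb-M' held for 32 of the 37 genes and for 20% of all genes tested. It held for 65.4% of the 508 unlisted protein-coding genes above 200 kb. The list was drawn up with these levels known, so its counts here partly restate that choice. The 5 exceptions among the 37 were ARHGAP42, TBC1D5, MAD1L1, SMYD3 and WWOX. Set directly against Chb-50, Chb-M' gave a median difference of -0.34 over the 37, against 0.01 over all genes tested. Over the 508 unlisted long genes it was -0.15. None reached 2-fold (0 of 37, against 0.0741% of all genes). At 1.5-fold 6 were lower, against 1.08% of all genes and 1.97% of the 508 unlisted long genes. These were ARHGAP32 (-0.77), CSMD3 (-0.67), MSH3 (-0.64), FER (-0.62), ADGRL3 (-0.61) and FOXP2 (-0.59). For LRBA the compounds differed by -0.08, with a 95% interval of -0.46 to 0.29, and for TBC1D5 by 0.01, with an interval of -0.24 to 0.27. The highest values were those of ARHGAP42 (0.21), SMYD3 (0.20) and WWOX (0.13), followed by TBC1D5 and EXOC4 (-0.04). These intervals again take the knockdown spread for unreplicated arrays.

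Setting Chb-50 against the knockdown arrays uses neither the DMSO nor the Chb-M' array. The list was still drawn up with the Chb-50 levels known, so this is a description too. Chb-50 lay below each of the 8 knockdown arrays for 34 of 37 genes, against 22% of all genes tested, with PRKCE, MAD1L1 and MSI2 as exceptions. Chb-M' lay below each of the 8 knockdown arrays for 34 genes as well, against 21.9% of all genes. Among the 508 unlisted protein-coding genes above 200 kb the shares were 56.7% for Chb-50 and 67.3% for Chb-M'. The DMSO array lay below all 8 for 14 genes, inside their range for 15 and above all 8 for 8, and over all genes tested it lay below them for 20.1% and above them for 17.4%. The compound and knockdown cultures also differ in transduction, doxycycline and time, and these cannot be told apart in that contrast.

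Long genes that are not on the list also lay lower with both compounds than genes of 200 kb or less. Of 508 other protein-coding genes above 200 kb, 27 (5.31%) were at least 2-fold and 148 (29.1%) at least 1.5-fold lower with Chb-M', and their median was -0.38. Of 10027 protein-coding genes of 200 kb or less, 0.14% were at least 2-fold and 1.36% at least 1.5-fold lower, with a median of 0.03. Thus 44 of the 58 protein-coding genes at least 2-fold lower with Chb-M' were longer than 200 kb. The lowest unlisted long genes were DIAPH3 (-1.32), PDSS2 and ZNF804A (both -1.31), NCOA2 (-1.28), ZRANB3 (-1.24) and SSBP2 (-1.22). DIAPH3 is a formin, PDSS2 acts in coenzyme Q synthesis, NCOA2 is a nuclear receptor coactivator and ZRANB3 remodels stalled replication forks. With Chb-50, 0 of the 508 were at least 2-fold lower and 61 (12.0%) at least 1.5-fold lower, against 0.838% of the genes of 200 kb or less. The lowest were SCAPER (-0.99), ANKFN1 (-0.95), NCOA1 (-0.91), PRKCA, SBF2 and RASAL2 (all -0.89). ANKFN1 ranged from 4.23 to 8.33 over the knockdown arrays, so its value is a poor guide. In the direct contrast of Chb-M' with Chb-50 the lowest unlisted genes were DIAPH3 (-0.75), TTC28 (-0.72), PLXDC2 (-0.67), PDSS2 and ZNF804A (both -0.66) and CBLB (-0.63).

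**Figure D2:**
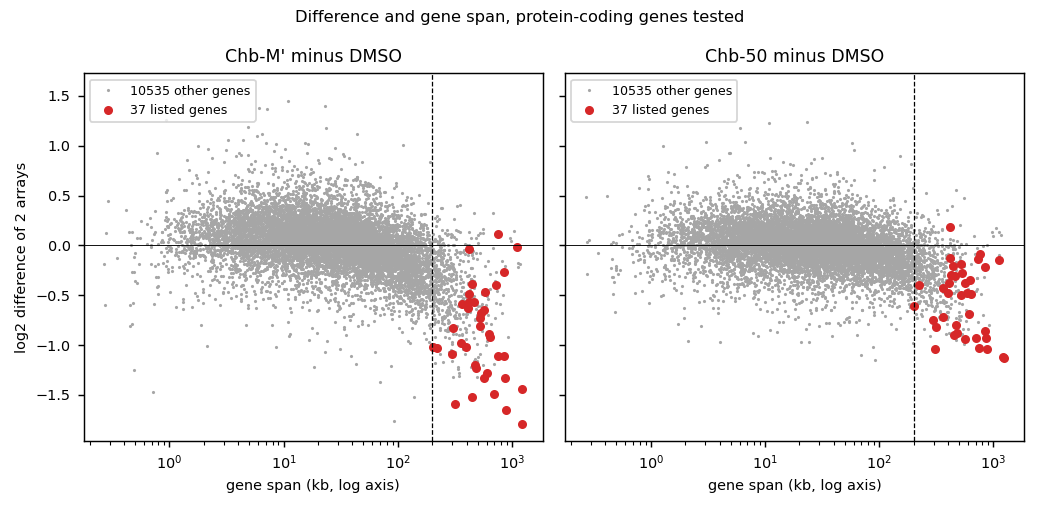
Log2 difference of each compound array from the DMSO array against gene span (kb, log axis) for the protein-coding genes tested; red points are the 37 listed genes, grey points the 10535 others, and the dashed line marks 200 kb. The cloud bends downward to the right of about 100 kb in both panels, more so with Chb-M', and WWOX and SMYD3 lie near 0 at the far right.

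The Chb-M' median by span was 0.10 up to 10 kb (2385 genes), 0.08 from 10 to 25 kb, 0.04 from 25 to 50 kb and -0.05 from 50 to 100 kb. It was -0.19 from 100 to 200 kb (1066 genes), -0.34 from 200 to 300 kb (297 genes), -0.51 from 300 to 400 kb (112 genes), -0.52 from 400 to 600 kb (94 genes) and -0.48 above 600 kb (42 genes, 14 of them listed). Without the listed genes the medians of these last 2 bins were -0.45 and -0.32 against -0.49 from 300 to 400 kb. The list was drawn up with the levels known, so values without it may understate the differences. It holds 15 of the 94 genes and 14 of the 42 in these bins, but 5 of the 112 from 300 to 400 kb. The Chb-50 median went from 0.05 up to 10 kb to -0.11 from 100 to 200 kb, -0.32 from 300 to 400 kb and -0.35 above 600 kb. DMSO minus shLuc had medians between -0.02 and 0.02 in the bins up to 600 kb and -0.12 above 600 kb. As a description across genes, which are not independent replicates, the Spearman correlation between span and the difference was -0.41 for Chb-M' and -0.31 for Chb-50 over 10572 genes, and -0.40 and -0.30 without the listed genes. It was -0.0049 for DMSO minus shLuc. The DMSO array enters both compound differences, and all genes share the arrays' normalization.

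**Figure D3:**
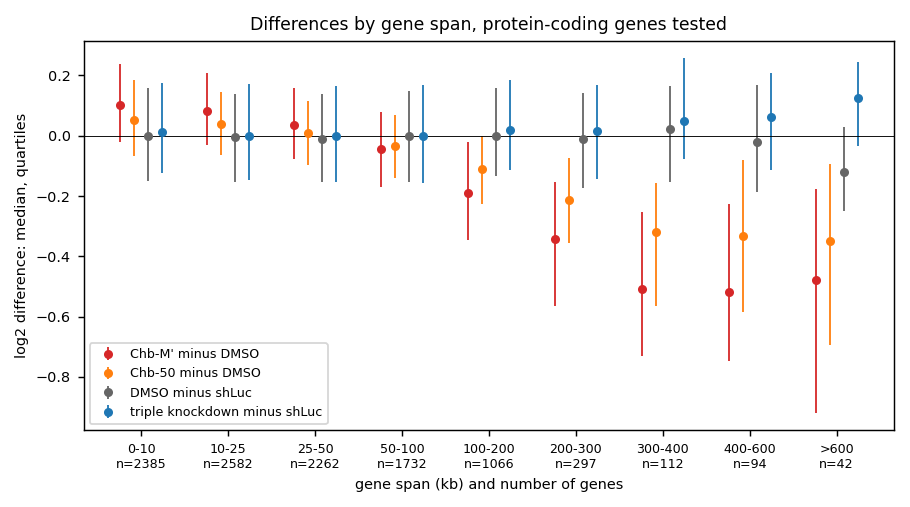
Median (point) and quartiles (line) of the log2 difference in bins of gene span for the protein-coding genes tested, with the number of genes under each bin. The Chb-M' and Chb-50 medians go from 0.10 and 0.05 in genes up to 10 kb to -0.51 and -0.32 at 300 to 400 kb, while DMSO minus shLuc and the triple knockdown minus shLuc stay between -0.12 and 0.13.

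Within the list itself span and difference were only loosely related (Spearman correlation -0.11 for Chb-M' and -0.16 for Chb-50 over 37 genes). The 7 listed genes above 800 kb that reached the filter included CSMD3, GPHN, ADGRL3, VPS13B and DPYD, all at least 2-fold lower with Chb-M', but also EXOC4 and WWOX. At the short end BTRC (203 kb) and MSH3 (222 kb) had -1.02 and -1.03. The unlisted SCAI and TSHZ3, both of 201 kb, had -0.68 and -0.07, and LRCH1 (199.9 kb) and SLC35D4 (199.4 kb) had -0.46 and -0.30. The difference also varied with level. Among unlisted genes above 200 kb the Chb-M' median was -0.12 where the mean level without compound was at most 4 (63 genes), -0.24 between 4 and 5, -0.39 between 5 and 6, -0.53 between 6 and 7 and -0.48 above 7 (133 genes). Genes of 200 kb or less had medians between 0.02 and 0.06 in the same 5 level ranges.

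No shift like that of the compounds was seen over the listed genes on the arrays with RUNX shRNAs. Those cultures had 24 hours with doxycycline, against 6 hours without it for the compounds. RUNX3 levels overlapped with and without its shRNA and RUNX1 was not examined, so the extent of knockdown is known only in part. Against shLuc the median of the 37 lay between -0.05 (shRUNX1) and 0.08 (shRUNX1+shRUNX3), and it was 0.06 in the triple knockdown. None of the 37 differed 2-fold on any of the 7 arrays. Over all genes tested, 2.86% differed 2-fold on at least 1 of them, so a count of 0 in a list of this size is near the background. In the triple knockdown 14 of 37 lay below shLuc, against 47.4% of all genes tested. The 2 genes at least 1.5-fold apart on any knockdown array (14.7% of all genes) were FOXP2, higher by 0.77 with shRUNX1+shRUNX3 and by 0.75 in the triple knockdown, and MSI2, at -0.70 with shRUNX1. MSI2 read 5.79 on that array and 6.37 to 6.68 on the other 7.

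**Figure D4:**
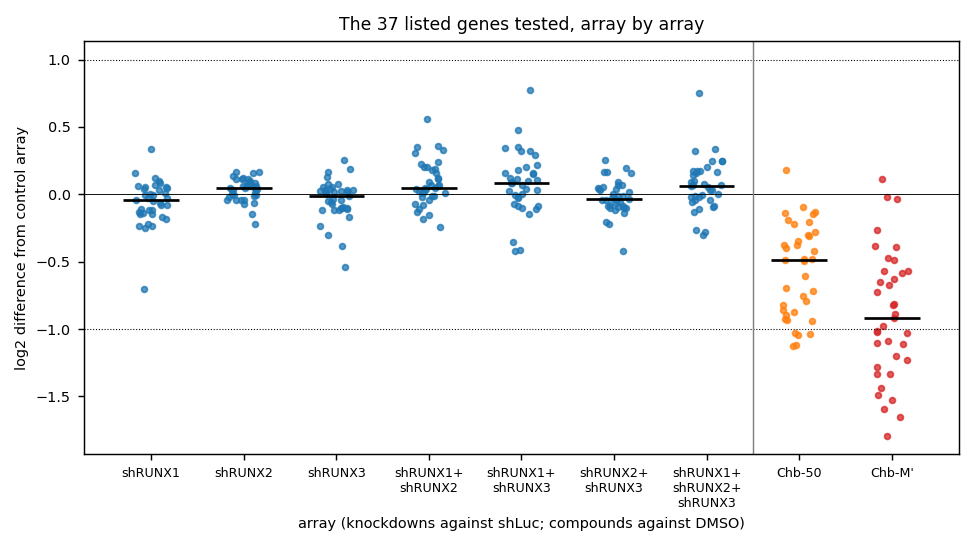
Log2 difference of each of the 37 genes that reached the level filter from shLuc (7 knockdown arrays) or from DMSO (Chb-50 and Chb-M'); black bars are medians and dotted lines mark 2-fold. The knockdown points centre near 0, with medians from -0.05 to 0.08, and the compound points lie lower, with medians of -0.49 and -0.92.

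By limma on the 8 knockdown arrays, with the 3 shRNAs as additive terms, 0 of the 37 genes passed an adjusted p of 0.05 for any shRNA, as was true of all 12147 genes (0% each). At an unadjusted p under 0.05 the RUNX1 shRNA had 6 of 37 (4 higher, 2 lower) against 21.2% of all genes. The RUNX2 shRNA had 2 against 4.88%, and the RUNX3 shRNA 3 against 9.39%. FOXP2 had the smallest p for the RUNX1 shRNA, with an estimate of 0.44 (SE 0.0988, limma adjusted p = 0.0995). It read 7.19, 7.10, 7.63 and 7.60 on the arrays with that shRNA (alone, with RUNX2, with RUNX3 and in the triple knockdown) and 6.85, 6.97, 6.91 and 7.02 on shLuc, shRUNX2, shRUNX3 and shRUNX2+shRUNX3, with no overlap. PRKCE followed with 0.45 (limma adjusted p = 0.118) and CDKAL1 with -0.23 (adjusted p = 0.134). For the RUNX2 shRNA the smallest p belonged to ADGRL3 (0.18) and TBC1D5 (0.14), both at a limma adjusted p of 0.965, and DPYD (0.13). For the RUNX3 shRNA it belonged to FOXP2 (0.26), FARS2 (0.16) and PRKCE (-0.29), with limma adjusted p from 0.505 to 0.522. The medians of the estimates were 0.03 for each of the 3 shRNAs, against 0.01, 0.00 and 0.01 over all genes tested.

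The count for the RUNX1 shRNA rested on the array labelled shRUNX1. Without it limma passed 3 of the 37, all higher, PRKCE (0.59), ATXN1 (0.40) and UTRN (0.32), with adjusted p from 0.0344 to 0.0472, against 6.73% of all genes. That fit describes the RUNX1 shRNA only in company with another. A term for RUNX1 and RUNX3 shRNAs together passed in 0 of 37 by limma, with 4 at an unadjusted p under 0.05 against 12.7% of all genes, of which 0% passed. The labels give 1 array per condition and do not speak of separate transductions, so the p-values rest on array-to-array spread that may be technical only.

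A list of genes that carry polymerase through its template, hold it back or remove lesions that stop it was set beside the very long genes. Of these 41 elongation and transcription-coupled repair genes, 36 had a cluster and 35 reached the filter. With either compound 0 of 35 were at least 1.5-fold lower, where 3.21% (Chb-M') and 1.98% (Chb-50) of all genes were, so a count of 0 in a list of this size is near the background. The medians, which pool genes of opposite action, were -0.01 with Chb-M' and -0.03 with Chb-50. The lowest with Chb-M' were the kinase CDK13 (-0.45), which phosphorylates the polymerase, and the topoisomerase TOP2A (-0.44). The highest were HEXIM1 (0.62), which holds the elongation kinase P-TEFb inactive, and CDK9 (0.39), the kinase of P-TEFb. HEXIM1 was the 1 gene at least 1.5-fold higher, against 2.25% of all genes. With Chb-50 the lowest were AFF1 (-0.42) and CDC73 (-0.38) and the highest UVSSA (0.29) and HEXIM1 (0.22). Between the compounds, Chb-M' minus Chb-50 was lowest for UVSSA (-0.35) and CDK12 (-0.26) and highest for HEXIM1 (0.40) and CDK9 (0.29). By limma 0 of 35 passed for any shRNA, as was true of all 12147 genes. At an unadjusted p under 0.05 there were 7, 0 and 3 for the RUNX1, RUNX2 and RUNX3 shRNAs. The shares over all genes were 21.2%, 4.88% and 9.39%, so these counts are near the background.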

How the data were processed

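RNA of 11 MV4-11 cultures was read on Affymetrix arrays, 1 per condition. The authors deposited log2 levels for 53617 transcript clusters (sets of probes for a locus), with each of the 11 columns matched to a labelled sample. The submitters' processing notes name RMA, Transcriptome Analysis Console 1.0 and Affymetrix Expression Console 1.3.1 without saying what each did. RMA as usually run gives every array the same distribution, so a level is relative to the other clusters of its array. Detection p-values and probe positions were not used here. Signal over background is therefore unknown, and precision is limited by how few arrays there are.

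Of the clusters, 23558 carried 1 gene symbol in GEO's platform annotation, 2155 carried several and 27904 none. Only the first were used, with the cluster of highest mean level where a gene had more than 1 (618 genes). Genes whose highest level reached the median of these values (3.80) were tested, 12147 in all, and this filter favours genes that are high on any array. Spans, names and promoters came from RefSeq tables for GRCh38.p14, which held 22271 of the clusters' identifiers.

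The 8 knockdown arrays were fitted with 3 additive shRNA terms in limma 3.58.1 (R 4.3.3, 4 residual and 3.19 prior degrees of freedom). The p-values were adjusted by Benjamini-Hochberg over all genes tested. The fit was also run on data simulated with independent noise and changes of at least 2-fold, so smaller changes were not covered. Differences of single compound arrays have no replicate check. Their 95% intervals come from a limma fit of all 11 arrays that assumes the knockdown spread (7.19 degrees of freedom). The listed genes, the role groups, the other lists and the tests were chosen with earlier results of these data known. The naming rule took all 44 genes by role, the extremes of each compound contrast, the 3 listed genes of smallest p per shRNA, the 6 lowest unlisted long genes and the 2 lowest and 2 highest elongation genes per compound contrast. Genes at the edge of 200 kb and the second clusters were chosen after their values were seen. Alternatives changed the filter, scaling, cluster choice, fold, control array, variance trend, terms and arrays fitted.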

Additional observations from a re-analysis of the deposited data

How the results depend on the processing

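The Chb-M' median over the listed genes stayed between -0.82 and -0.98 and the Chb-50 median between -0.45 and -0.56 under every filter, scaling, cluster choice and control array tried. Counts followed the fold, as they must. At 1.5-fold and 3-fold, 26 and 3 genes were lower with Chb-M', 17 and 0 with Chb-50, and 6 were lower at 1.5-fold between the compounds. At 1.5-fold 2 genes differed on some knockdown array. With shLuc as control 8 genes were at least 2-fold lower with Chb-50, against 5 with DMSO. Shares over all genes were not computed at 3-fold or with shLuc as control, so those counts have no background.

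Over protein-coding genes, the Spearman correlation with span became -0.25 for Chb-M' and -0.19 for Chb-50 without the level filter, and the medians above 200 kb became -0.11 and -0.10, in a set that adds genes near background. The Chb-M' median was -0.24 above 100 kb and -0.59 above 500 kb, against -0.40 above 200 kb, and without the listed genes these medians were -0.23, -0.50 and -0.38. When each knockdown array was left out in turn, the genes passing limma numbered 0 to 3 for the RUNX1 shRNA and 0 for RUNX2 and for RUNX3. The median estimates ran from 0.02 to 0.07, from 0.02 to 0.06 and from -0.03 to 0.04. No paired analysis was possible because every condition has 1 array with the same replicate number. Among 426 recomputed values of single genes, 82 compound differences moved by more than their standard error. The limma estimates among the 426 were not compared with their standard errors. Of the 426, 10 changed sign, all with a reported size of at most 0.26. These were values of SMYD3, MAD1L1 and PARD3 with Chb-M' and of MSI2 with Chb-50 under another control, of EXOC4 with either compound as a mean of clusters, and of TBC1D5 between the compounds after centring.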
